A study of Homo sapiens with 3 samples.

Results

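The endoplasmic reticulum chaperones and folding enzymes are described here as 34 genes, of 58735 gene identifiers measured. They were chosen by name: chaperones of the Hsp70, Hsp90 and lectin types, disulfide isomerases and their oxidases, sensors of unfolded protein, and factors of reticulum-associated degradation and translocation. All 34 were matched by symbol, each to 1 gene of GENCODE release 29. Total RNA came from 3 samples labelled KG1a, a line from acute myeloid leukaemia. The control, 1 library with the genotype label wild type, had received shCtrl lentivirus. The knockdown libraries, 2 with the genotype label TRAF7 knockdown, had received shTRAF7 lentivirus, against a ubiquitin ligase of the TRAF family. Per the labels all 3 share a batch date, and the labels do not say whether shTRAF7-1 and shTRAF7-2 are separate hairpins or separate cultures, so that p-values measure only the spread between these libraries, which may be technical. No time after infection is given in the labels.

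Secreted and membrane proteins enter the reticulum through the Sec61 channel and fold there with the help of HSPA5 (BiP), the reticulum's Hsp70, and of its co-chaperones. Glycoproteins pass through the lectins calnexin and calreticulin together with PDIA3, and disulfide bonds are formed by isomerases that ERO1 oxidases recharge. When unfolded protein accumulates, the sensors IRE1 (ERN1), PERK (EIF2AK3) and ATF6 are activated, and ATF6 and spliced XBP1 then induce many of these genes through short promoter elements. Proteins that fail to fold are drawn back out of the reticulum by the SEL1L-SYVN1 complex and degraded. In leukaemia cells, as in others, a rise of HSPA5 with its co-chaperones is a common sign of reticulum stress.

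The elements by which ATF6 and XBP1 are known to act were searched for on both strands of RefSeq promoters (GRCh38.p14), each 300 bases long, from 250 bases before the annotated start to 50 after it. Of the 34 genes 31 had a promoter in that table. The endoplasmic reticulum stress element, ERSE, was searched as CCAAT, any 9 bases and CCACG. It was found in 27 of 35116 promoters (0.0769%), and in 8 of the 31 members against 25 of 27305 genes in all (0.0916%). The related element ERSE-II, searched as ATTGG, any base and CCACG, was found in 19 promoters (0.0541%) and in 3 of the 31 members. The XBP1-type core TGACGTGG was found in 256 promoters (0.729%) and in 3 of the 31 members. In HYOU1 it overlaps one of the ERSE-II copies. A match is a description of these letters, not evidence of a bound site.

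The 8 members with ERSE and the 3 with ERSE-II are shown because genes with the same element lay on both sides of the control. Each stretch is written 5′ to 3′ on the strand of its gene, with 20 bases on either side where the promoter reaches that far. Capitals mark ERSE, ERSE-II or the TGACGTGG core. An element in the opposite orientation appears as its reverse complement, as in CALR and SDF2L1.
HSPA5 (chr9:125241371-125241429, minus strand): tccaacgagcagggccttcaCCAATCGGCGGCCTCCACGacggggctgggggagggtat
HSP90B1 (chr12:103930196-103930359, plus strand): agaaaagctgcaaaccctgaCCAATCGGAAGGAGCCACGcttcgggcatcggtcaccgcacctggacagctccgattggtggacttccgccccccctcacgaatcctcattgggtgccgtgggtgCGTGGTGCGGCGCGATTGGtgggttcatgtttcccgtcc
CALR (chr19:12938364-12938422, plus strand): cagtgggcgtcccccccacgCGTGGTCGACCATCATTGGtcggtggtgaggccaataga
CANX (chr5:179698758-179698816, plus strand): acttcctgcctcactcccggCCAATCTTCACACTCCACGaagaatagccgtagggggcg
PDIA6 (chr2:10812833-10812891, minus strand): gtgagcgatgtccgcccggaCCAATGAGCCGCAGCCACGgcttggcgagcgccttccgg
ERO1B (chr1:236282163-236282208, minus strand): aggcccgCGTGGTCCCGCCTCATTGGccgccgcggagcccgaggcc
CRELD2 (chr22:49918534-49918592, plus strand): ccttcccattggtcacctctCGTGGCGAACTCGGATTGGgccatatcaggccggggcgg
XBP1 (chr22:28800583-28800641, minus strand): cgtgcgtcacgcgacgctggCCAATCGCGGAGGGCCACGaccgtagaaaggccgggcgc
SDF2L1 (chr22:21642094-21642144, plus strand): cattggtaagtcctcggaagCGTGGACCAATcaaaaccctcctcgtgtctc
HYOU1 (chr11:119057254-119057413, minus strand): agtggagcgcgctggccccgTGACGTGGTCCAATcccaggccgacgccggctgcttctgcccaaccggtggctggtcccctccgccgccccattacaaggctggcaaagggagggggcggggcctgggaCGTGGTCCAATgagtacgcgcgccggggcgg
HERPUD1 (chr16:56932005-56932055, plus strand): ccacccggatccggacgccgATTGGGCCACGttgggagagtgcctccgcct

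The libraries held 16014485 to 16254461 assigned reads, and the members took 0.691%, 0.658% and 0.707% of them in the control, knockdown 1 and knockdown 2. TRAF7 itself was at 46.5 FPKM (a read level scaled for exon length and depth) with shCtrl, and at 15.6 and 18.3 with shTRAF7. The labelled line was checked against its markers. CD34, the surface antigen that KG1a is known for, had 0 reads in the control, which allows up to 0.0193 FPKM at 3 reads, and 1 and 10 reads in the knockdown libraries, so the defining marker of the label was absent or nearly so. The leukocyte genes PTPRC and SPN were lower in both knockdown libraries, PTPRC at 9.54, 5.60 and 6.53 FPKM and SPN at 46.2, 45.3 and 32.9. All 6 erythroid markers used were detected, with a summed level of 94.2 FPKM with shCtrl, against 229.1 and 198.1 with shTRAF7-1 and shTRAF7-2. They did not move together. HBA1 (22.9, 90.2 and 74.8 FPKM), HBA2 (18.5, 56.2 and 41.9) and HBG1 (26.4, 58.9 and 53.3) carried the higher sum. HBG2 was at 14.6, 16.6 and 17.1. ALAS2 was lower in both, at 11.2, 6.99 and 9.13, and HBB lay on either side of the control, at 0.590, 0.345 and 1.89. Stromal and epithelial markers were led by KRT18 (62.0) and KRT8 (49.0), with all 7 together at 131.8, 162.3 and 144.8 FPKM. Plasma cell markers, which go with a large reticulum, were at 0 reads in all 3 libraries for JCHAIN, IGHG1 and IGKC. The 5 together summed to 0.774, 1.24 and 1.55 FPKM, and the 5 lymphoid markers to 7.33, 5.59 and 6.81. The part of these other cell-type genes in the results was not tested. In bulk RNA, fewer cells of a type and less RNA per cell cannot be told apart.

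The differences of the 34 genes went both ways, and on the FPKM values as deposited their median was that of all genes tested (0.04). The tested protein-coding genes alone had a median of 0.06. When the cut-off on mean level was raised to 5 FPKM, the 28 members kept had 0.04, against 0.11 for all genes kept. Under quantile normalization the median was −0.10 for the members, against 0.02 for all genes tested. Calreticulin and SDF2L1 were higher in both knockdown libraries, while SEL1L, EDEM1, HYOU1 and the sensors ERN1 and ATF6 were lower in both. HSPA5 differed by little. No member passed the test: by limma on log2(FPKM + 1), a linear model with a moderated variance, 0 of 34 had an adjusted p of 0.05 or less over the 12640 genes whose mean reached 1 FPKM, where 0 of all genes (0%) did. At an unadjusted p under 0.05 there were 3 of 34 members, against 9.19% of all genes. By limma-voom, run on whole reads worked back from FPKM, 0 of 34 passed against 0.865% of its 15034 genes, and 6 had an unadjusted p under 0.05 against 12.1%. With 1 control library the fit has 1 residual degree of freedom, taken from the knockdown pair, and the control is assumed to vary like them.

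Counted by direction alone, 16 of 34 members were higher than the control in both knockdown libraries, against 42.5% of the genes tested, and 11 were lower in both, against 30.8%. These shares are near the background and are not a result about the members. The median of the fitted log2 differences was 0.04 for the members and 0.04 for all genes tested. It was 0.04 in knockdown 1 and 0.03 in knockdown 2, beside 0.06 and 0.03 for all genes. The split moved with the scaling. With libraries scaled to all assigned reads, 8 members were higher and 19 lower in both (29.8% and 43.8% of all genes), and under quantile normalization 10 and 20 (38.6% and 33.8%). At 1.2-fold or more in both libraries, 4 members were higher (14.1% of all genes) and 2 lower (12%). DERL3 met the filter on low values only through the knockdown libraries, and without it 15 of 33 were higher and 11 lower, with 3 at 1.2-fold or more higher. Small differences were common: 12 of 34 members lay within 10% of the control in both libraries, against 14.8% of all genes, and the members' higher levels were not matched in that comparison.

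Counting error is small for the abundant members. The exact 95% Poisson intervals of the reads, which cover counting error only, lay above the control's in both knockdown libraries for 7 members (HSPA5, HSP90B1, SDF2, SDF2L1, CALR, PDIA6 and DERL3), against 16% of all genes. Without DERL3 they were 6 of 33. They lay below it in both for 4 members (HYOU1, ATF6, EDEM1 and SEL1L), against 7.81%. For the other 23 at least 1 interval overlapped that of the control. The summed level of the 34 genes was 1679 FPKM with shCtrl, against 1917 and 1911 with shTRAF7-1 and shTRAF7-2, which is 114.1% and 113.8% of the control. The sum over all genes tested stood at 111.8% and 108.2%. CALR and SDF2L1, picked out after their values were seen, made up most of the members' excess: the other 32 genes summed to 1216, 1223 and 1277 FPKM, or 100.6% and 105.1% of the control.

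**Figure D1:**
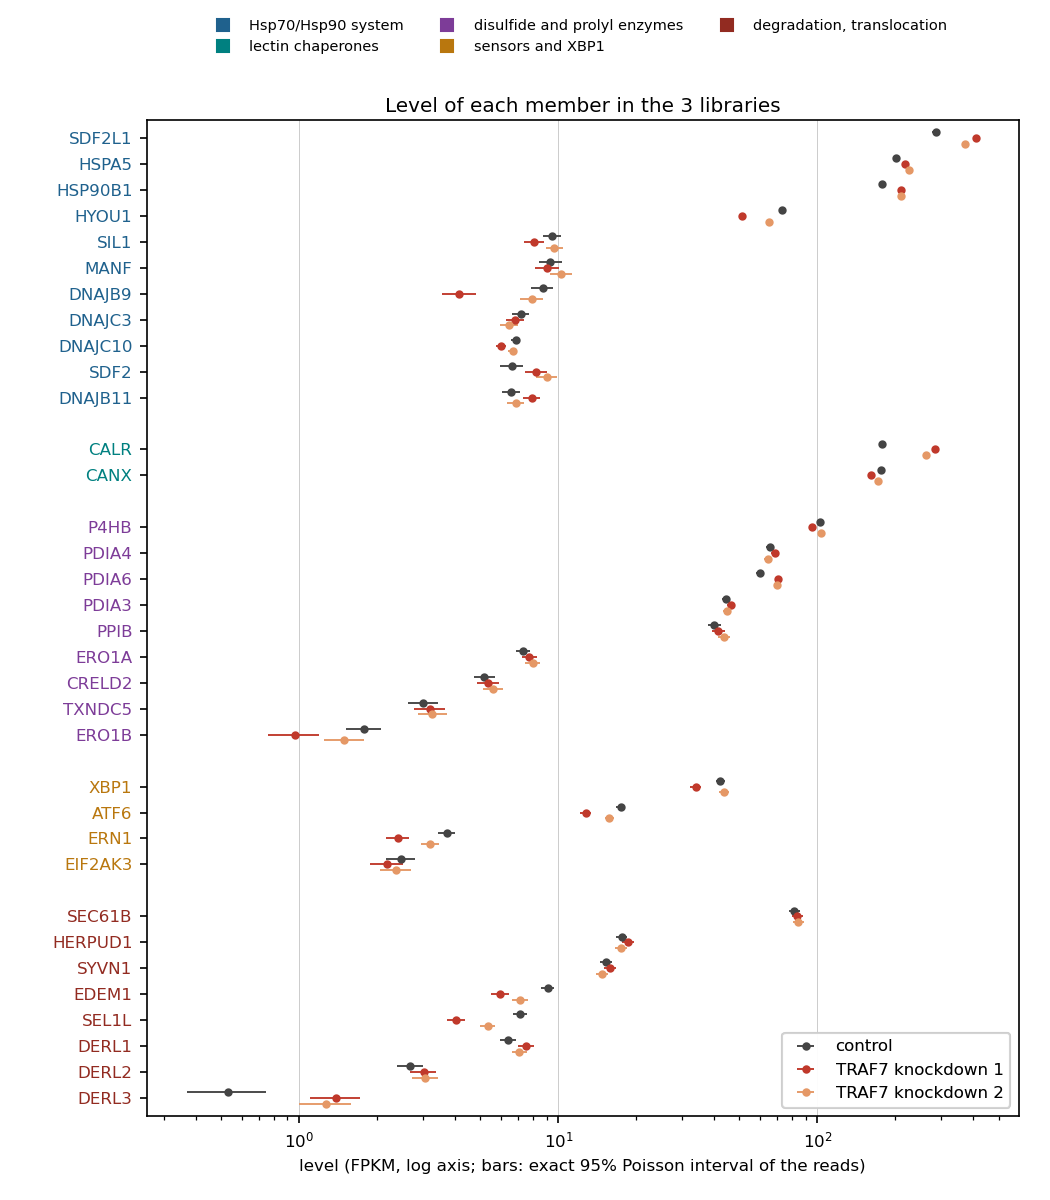
Level of each of the 34 genes in FPKM on a log axis, with the control in grey, knockdown 1 in red and knockdown 2 in orange, and bars for the exact 95% Poisson interval of the reads. SDF2L1, HSPA5, HSP90B1, CALR and CANX form the top of the range, at 161.3 FPKM or more, and DERL3 the bottom at 0.530 FPKM in the control.

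Of the 11 genes of the reticulum's Hsp70 and Hsp90 machinery, 5 were higher and 4 lower in both libraries. Their median was −0.04 in knockdown 1 and 0.05 in knockdown 2. HSPA5 (ENSG00000044574, chromosome 9, positions 125234853 to 125241330, minus strand, GRCh38), which binds unfolded chains and holds the sensors inactive, was at 200.3 FPKM with shCtrl, against 218.2 and 224.8 with shTRAF7-1 and shTRAF7-2. HSP90B1 (GRP94; chromosome 12, positions 103930107 to 103953645, plus strand), the reticulum's Hsp90, was at 177.3, 211.0 and 209.5. Both knockdown values of each gene lay above the control. Their fitted differences were 0.14 ± 0.13 (SE) and 0.24 ± 0.13, with limma's adjusted p = 0.753 and 0.611. Under quantile normalization HSPA5 turned to −0.10 and HSP90B1 shrank to 0.01, so the direction of HSPA5 depends on the scaling.

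HYOU1 (GRP170; chromosome 11, positions 119044189 to 119057202, minus strand), a large Hsp110-type protein that exchanges nucleotide on HSPA5, was at 73.1, 51.2 and 65.2 FPKM. Knockdown 1 lay well below and knockdown 2 a little below the control (70.1% and 89.2%), and the fitted difference of −0.33 ± 0.20 had a limma adjusted p of 0.657. Within a library, where a scaling factor common to all genes drops out, HSPA5 stood at 2.74 times HYOU1 with shCtrl against 4.26 and 3.45 times with shTRAF7. The second exchange factor, SIL1, was at 9.47, 8.07 and 9.66 FPKM, with the control between the knockdown libraries.

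The J-domain proteins, which direct HSPA5 to its substrates, did not move as a block. DNAJB9 (ERdj4), which also helps HSPA5 to restrain IRE1, was at 8.68 FPKM with shCtrl, against 4.14 and 7.89 with shTRAF7-1 and shTRAF7-2. Nearly all of its difference therefore came from knockdown 1, at 47.7% of the control against 90.8%, and the fitted value was −0.52 ± 0.33 (limma adjusted p = 0.675). DNAJB11 (ERdj3), a soluble partner of HSPA5, was at 6.56, 7.90 and 6.84. DNAJC3 (p58IPK), which also inhibits PERK, was at 7.15, 6.79 and 6.45. DNAJC10 (ERdj5), a reductase that opens disulfides before degradation, was at 6.84, 6.02 and 6.67. DNAJC3 and DNAJC10 were below the control in both libraries and DNAJB11 above it.

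SDF2L1 (chromosome 22, positions 21642261 to 21644298, plus strand), a small soluble protein that works with DNAJB11, was the most abundant member at 285.6 FPKM with shCtrl, against 410.1 and 370.2 with shTRAF7-1 and shTRAF7-2. Both knockdown libraries lay above the control, at 143.6% and 129.6%, with a fitted difference of 0.45 ± 0.12 and a limma adjusted p of 0.445. Its paralogue SDF2, at a far lower level, was at 6.61, 8.21 and 9.01 FPKM, also higher in both (0.34 ± 0.18, limma adjusted p = 0.617). The ratio of SDF2L1 to SDF2 was 43.2, 49.9 and 41.1, above the control in knockdown 1 and below it in knockdown 2. MANF, a secreted HSPA5-binding factor that is strongly induced by reticulum stress in many cells, was at 9.32, 9.03 and 10.3 FPKM, on either side of the control.

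The lectin chaperones parted. Calreticulin (CALR; ENSG00000179218, chromosome 19, positions 12938578 to 12944489, plus strand), the soluble lectin that also buffers calcium in the reticulum, was at 178.2 FPKM in the control with a counting interval of 174.4 to 182.1. It was at 283.9 (278.9 to 289.1) and 263.4 (258.7 to 268.3) in the knockdown libraries. Calnexin (CANX; chromosome 5, positions 179678628 to 179730925, plus strand), its membrane-bound counterpart, was at 175.3, 161.3 and 171.3 FPKM. The control thus had nearly equal levels, and both knockdown libraries had more CALR than CANX, with a ratio of 1.02, 1.76 and 1.54. CALR had a fitted difference of 0.61 ± 0.13 and a percentile of 97.3 among all genes tested. It did not pass by limma (adjusted p = 0.403, with a range of 0.000586 to 0.649 over the alternatives) or by limma-voom (adjusted p = 0.0764). The difference stayed above 0 under every scaling tried, with 0.37 under quantile normalization as the lowest.

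Among the disulfide isomerases and related enzymes, PDIA6 was the only one whose Poisson intervals cleared the control in both libraries. PDIA6 was at 59.8 FPKM with shCtrl, against 70.6 and 69.7 with shTRAF7-1 and shTRAF7-2 (0.23 ± 0.16, limma adjusted p = 0.692), and its difference was −0.0039 under quantile normalization. P4HB, the classical protein disulfide isomerase, was at 102.2, 95.6 and 103.5. PDIA3 (ERp57), which works with the lectins, was at 44.3, 46.4 and 44.9, and the large isomerase PDIA4 (ERp72) at 65.6, 68.5 and 64.4. These 3 lay within 10% of the control in both libraries, so CALR differed without its folding partner PDIA3. A transcribed pseudogene of the latter, PDIA3P1, had 122, 119 and 134 reads beside 3173, 3062 and 3095 at PDIA3 itself.

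The lower members of this set were flat with a single exception. TXNDC5, a further isomerase, was at 3.01, 3.19 and 3.27 FPKM, and CRELD2, a stress-inducible factor with isomerase activity, at 5.17, 5.35 and 5.60. PPIB (cyclophilin B), a prolyl isomerase, was at 40.0, 41.5 and 43.6. The oxidase ERO1A, which recharges the isomerases, was at 7.31, 7.72 and 7.95. All of these were above the control in both libraries by less than 10%, and each turned negative when libraries were scaled to assigned reads. Its paralogue ERO1B, at 1.78, 0.959 and 1.49 FPKM, was below the control in both. It rested on 161, 80 and 130 reads, with a fitted difference of −0.33 ± 0.27 (limma adjusted p = 0.734). Of the exon length of TXNDC5, 60.6% overlaps exons of BLOC1S5-TXNDC5 on the same strand, which had 0 reads in all 3 libraries. Whether reads in the shared part were counted for TXNDC5 was not tested, so its level may be understated.

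The sensors of unfolded protein were below the control in both libraries, mainly in knockdown 1: with XBP1, the median of the 4 genes was −0.36 there and −0.09 in knockdown 2. ERN1 (IRE1; chromosome 17, positions 64039142 to 64130819, minus strand), the kinase and RNase that splices XBP1 mRNA, was at 3.70 FPKM with shCtrl, against 2.40 and 3.20 with shTRAF7-1 and shTRAF7-2. ATF6 (chromosome 1, positions 161766294 to 161964070, plus strand), which is cut in the Golgi to release a transcription factor, was at 17.4, 12.7 and 15.8. EIF2AK3 (PERK), which phosphorylates eIF2alpha, was at 2.46, 2.18 and 2.35. In all 3 genes the control was highest and knockdown 1 lowest, with fitted differences of −0.32 ± 0.22, −0.28 ± 0.20 and −0.09 ± 0.21. None passed by limma (adjusted p = 0.692, 0.707 and 0.927).

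XBP1 (chromosome 22, positions 28794555 to 28800597, minus strand), the transcription factor downstream of IRE1, was at 42.2 FPKM with shCtrl, against 33.95 and 43.5 with shTRAF7-1 and shTRAF7-2. Only knockdown 1 lay below the control, so the libraries did not share a direction. Values per gene do not separate spliced from unspliced XBP1, and activation of the sensors was therefore not measured.

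Among the degradation genes, SEL1L and EDEM1 were lower in both libraries, beside flat genes of the same pathway. SEL1L (ENSG00000071537, chromosome 14, positions 81471549 to 81533861, minus strand), the scaffold of the retrotranslocation complex, was at 7.11 FPKM with shCtrl, against 4.04 and 5.34 with shTRAF7-1 and shTRAF7-2. EDEM1 (chromosome 3, positions 5187646 to 5219957, plus strand), which trims mannose to mark glycoproteins for disposal, was at 9.08, 5.96 and 7.13. Both genes were below the control in both libraries, at 56.8% and 75.1% for SEL1L and 65.7% and 78.6% for EDEM1. The fitted differences were −0.52 ± 0.21 and −0.42 ± 0.19, with limma's adjusted p = 0.542 and 0.566. SYVN1 (HRD1), the ubiquitin ligase that SEL1L stabilises, was at 15.3, 15.8 and 14.8 FPKM. Of its exon length 7.24% overlaps exons of FAU on the same strand, which had 6176, 7144 and 7267 reads. A further 6.48% overlaps MRPL49 on the opposite strand, with 1591, 2270 and 1961 reads. The part of such reads in the values of SYVN1 was not tested. The ratio of SEL1L to SYVN1 was 0.464 with shCtrl against 0.256 and 0.361 with shTRAF7.

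HERPUD1, a short-lived membrane protein of the same complex and a common stress target, was at 17.5, 18.6 and 17.5 FPKM. The derlins, membrane proteins of the exit channel, were above the control in both libraries, DERL1 at 6.40, 7.50 and 7.08 and DERL2 at 2.68, 3.02 and 3.06. Their fitted differences of 0.16 ± 0.17 and 0.13 ± 0.19 were no larger than their errors. DERL3 was at 0.530, 1.39 and 1.26 FPKM, from 34, 82 and 78 reads. Of its exon length 77.0% overlaps exons of SMARCB1 on the opposite strand, which had 1496, 1723 and 1755 reads. Whether counting used strand is not stated here by any label or header, so reads of DERL3 and of SMARCB1 cannot be told apart. SEC61B, a small subunit of the import channel, was at 81.4, 83.6 and 84.3 FPKM.

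**Figure D2:**
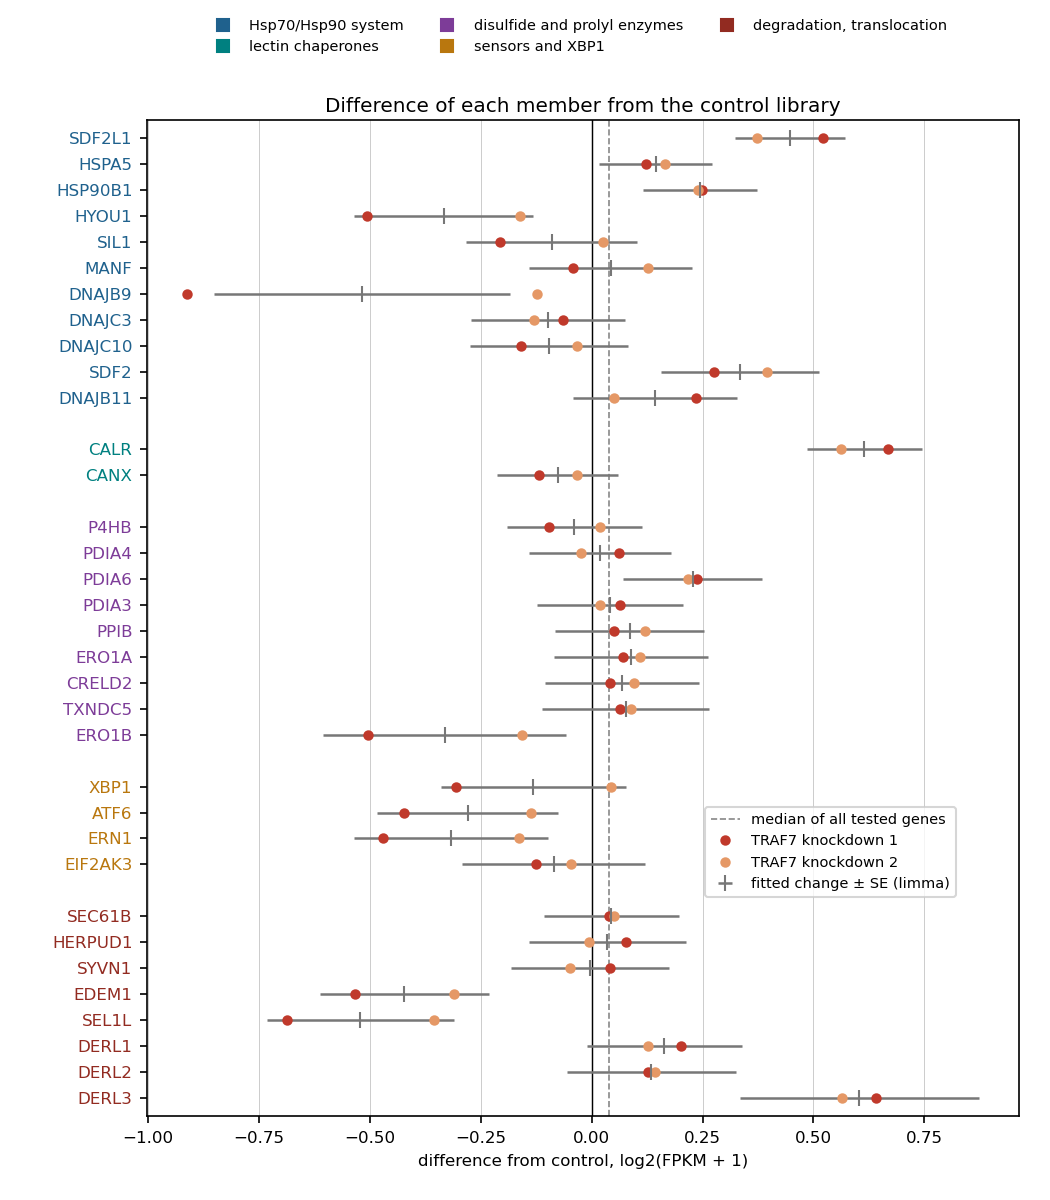
Difference from the control of each gene on the log2(FPKM + 1) scale in knockdown 1 (red) and knockdown 2 (orange), with the fitted value ± SE in grey and the median of all genes tested (0.04) as a dashed line. CALR and SDF2L1 lie to the right in both libraries, SEL1L and EDEM1 to the left, and DNAJB9 is far left in knockdown 1 only.

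Among the 11 members lower in both libraries, 10 were farther from the control in knockdown 1, the library with less TRAF7 (33.6% of the control against 39.4%). Of all genes lower in both, 62.3% were farther in knockdown 1. Among the 16 members higher in both, 8 were farther in knockdown 1, against 68.0% of all such genes. The libraries share their control, so their differences are not independent of each other.

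Exon length moved with these differences. The 6 members in the longest of 4 equal classes of protein-coding genes by summed exon length (7392 bases or more: ATF6, DNAJC10, ERN1, ERO1A, HYOU1 and SEL1L) had a median fitted difference of −0.30, and 5 of them were lower in both libraries. All protein-coding genes of that class had a median of 0.00, with 36.9% lower in both. The 7 members in the shortest class (up to 3238 bases), among them CALR and SDF2L1, had a median of 0.04, where all genes of that class had 0.15 and 57.7% were higher in both. Across the 34 members Spearman's rho between exon length and the fitted difference was −0.45, and across 9897 protein-coding genes −0.23. Between the control level and the fitted difference rho was 0.16 across the members and 0.28 across the same protein-coding genes. These are descriptions across genes that share libraries, and genes are not replicates. Reads on sense intronic genes were also highest in the control, at 553.2 RPM (reads scaled to library size) against 448.5 and 475.5. The part of length, of level and of intronic RNA in the lower values of SEL1L, HYOU1, ERN1 and ATF6 was not tested. Nor was the part of length in the ratios of HSPA5 to HYOU1, CALR to CANX and SEL1L to SYVN1. Their genes differ in exon length, at 3908 and 7694, 2714 and 6235, and 9559 and 5496 bases.

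**Figure D3:**
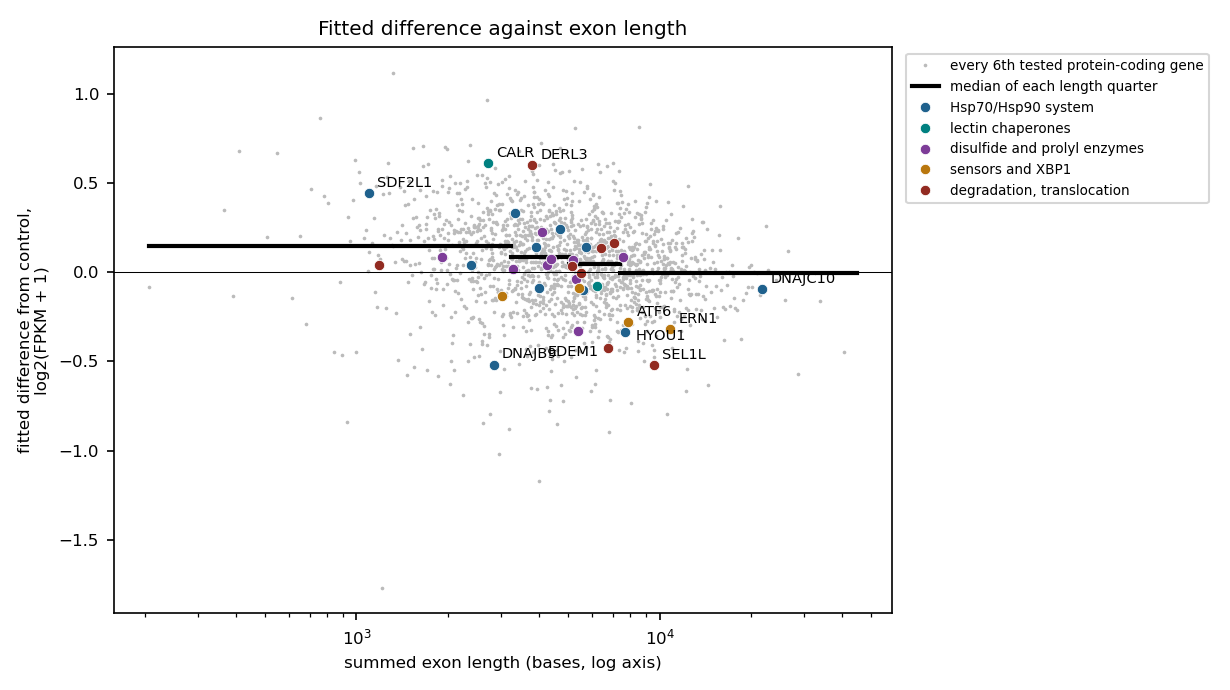
Fitted difference from the control on the log2(FPKM + 1) scale against summed exon length in bases on a log axis, for the members by role and for every 6th protein-coding gene tested (grey), with black bars for the median of each of 4 length classes. The medians step from 0.15 in the shortest class to 0.00 in the longest, and ATF6, HYOU1, ERN1 and SEL1L lie below the bar of their class.

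Members that share a promoter element did not share a direction. Of the 8 genes with ERSE, CALR, HSP90B1, PDIA6, HSPA5 and CRELD2 were higher in both libraries, CANX and ERO1B were lower in both, and XBP1 lay on either side of the control. Their median fitted difference was 0.11, and 6 other tested genes with ERSE had a median of 0.11. Of the 3 genes with ERSE-II, SDF2L1 was higher in both, HYOU1 lower in both, and HERPUD1 on either side. Of 8 other tested genes with ERSE-II, 6 were higher and 0 lower in both, with a median of 0.22. The element lies 183 bases before the start in SDF2L1, and in HYOU1 at 180 and 74 bases before it. HYOU1 also holds the TGACGTGG core, so the gene with most matches among the members was among those below the control. The 18 members with none of the 3 elements had a median of −0.02, with 6 higher and 7 lower in both.

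**Figure D4:**
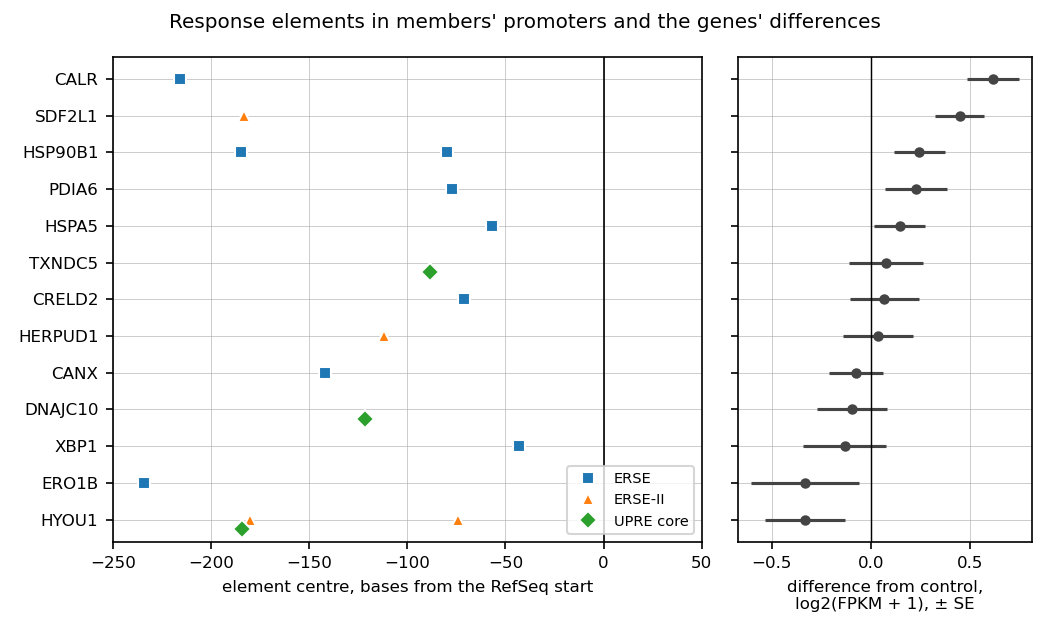
Left, position of each ERSE, ERSE-II and TGACGTGG (UPRE core) match in the promoters of 13 members, in bases from the RefSeq start, with the first listed start shown for CANX and the UPRE markers drawn slightly lower. Right, the fitted difference of the same genes on the log2(FPKM + 1) scale ± SE, in which genes with the same element lie on both sides of 0.

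Other genes of the secretory pathway were as mixed as the members. They were taken as 8 lists of the reticulum: other disulfide enzymes, other prolyl isomerases, glycan quality control, oligosaccharyltransferase, translocon and signal peptidase, other degradation factors, ATF6 processing and relatives, and IRE1 partners. Of their 106 genes 99 were tested, and the median was 0.03. In both libraries 42 were higher (42.4%) and 33 lower (33.3%), against 42.5% and 30.8% of all genes. These shares are near the background. By limma 0 of the 99 passed, with 3 at an unadjusted p under 0.05 against 9.19% of all genes. By limma-voom 0 passed, with 5 at an unadjusted p under 0.05 against 12.1%. PRDX4, a peroxiredoxin that feeds disulfides to the isomerases, was at 44.8, 64.2 and 59.3 FPKM, and GANAB, the glucosidase that prepares glycans for CALR and CANX, at 127.4, 170.5 and 164.7. MCFD2, a cargo receptor subunit, was at 50.6, 32.8 and 40.9, and the channel subunit SEC61A1 at 62.9, 51.2 and 51.3. These pairs again lay on opposite sides of the control.

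The counts of each list stand beside 42.5% of all genes higher and 30.8% lower in both libraries, and the lists are small. Of 12 oligosaccharyltransferase genes, which encode the enzyme that attaches glycans, 8 were higher and 2 lower in both, with a median of 0.08. DAD1 was at 68.2, 94.2 and 85.3 FPKM and OST4 at 62.9, 90.2 and 75.4. Of 24 other degradation factors 14 were higher and 7 lower (median 0.10), with UFD1 at 28.2, 41.8 and 36.0 and SELENOK at 7.36, 10.6 and 10.1. Of 7 tested prolyl isomerases 2 were higher and 4 lower (median −0.25), with FKBP2 at 25.2, 31.9 and 32.8 and FKBP7 at 1.96, 0.814 and 1.34. Of 15 other disulfide enzymes 4 were higher and 4 lower (−0.06), with QSOX1 at 11.6, 8.08 and 9.67. Of 12 glycan quality control genes 3 were higher and 6 lower (−0.07), and of 17 translocon and signal peptidase genes 7 and 6 (0.07), with SPCS1 at 11.3, 14.2 and 14.1. The ATF6 relatives had 1 higher and 3 lower of 7 (−0.13), with ATF6B at 42.9, 35.9 and 36.3 and CREB3L2 at 9.86, 5.85 and 9.01. The IRE1 partners had 3 higher and 1 lower of 5 (0.28), with RTCB, the ligase that joins XBP1 exons, at 35.9, 46.3 and 43.05 and BFAR at 12.3, 14.9 and 16.3. Several of these medians differed between the knockdown libraries. In knockdown 1 and 2 they were −0.31 and −0.08 for prolyl isomerases, −0.09 and 0.03 for other disulfide enzymes, and −0.14 and 0.01 for glycan quality control. For the translocon and signal peptidase they were 0.10 and 0.01, and for the ATF6 relatives −0.13 and −0.08. The oligosaccharyltransferase genes had 0.09 and 0.09, the other degradation factors 0.10 and 0.09, and the IRE1 partners 0.26 and 0.20. No list of these 8 held a gene that passed by limma or by limma-voom.

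The PERK and ATF4 branch was mixed. DDIT3 (CHOP), the factor linked to death under prolonged stress, was at 23.6, 27.9 and 27.4 FPKM, and ATF4 at 239.8, 226.7 and 240.3. Of the 13 genes 4 were higher and 4 lower in both, against 42.5% and 30.8% of all genes. Their median was −0.08 (−0.08 in knockdown 1 and 0.01 in knockdown 2). By limma 0 passed, with 3 at an unadjusted p under 0.05 against 9.19% of all genes. By limma-voom PHGDH (adjusted p = 0.000182) and ATF5 (adjusted p = 0.012) were lower, where 0.865% of all genes passed in either direction. EIF2S1, which encodes eIF2alpha, the target of PERK, was at 16.1, 30.0 and 23.7.

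The cytosolic relatives of the members gave another picture. All 10 of these genes were above the control in both libraries, against 42.5% of all genes. Under quantile normalization 9 of 10 were, against 38.6%. Their median was 0.52, with 0.83 in knockdown 1 and 0.28 in knockdown 2, and each was farther from the control in knockdown 1. By limma 0 of the 10 passed, with 4 at an unadjusted p under 0.05 against 9.19% of all genes. By limma-voom HSP90AA1 (adjusted p = 0.0106) was higher, where 0.865% of all genes passed in either direction. The difference from the reticulum's own genes was not tested. HSP90AB1 was at 1075, 1584 and 1378 FPKM and PPIA at 257.0, 366.9 and 353.4. Within libraries the reticulum form thus took a smaller share of each pair: HSPA5 over its cytosolic relative HSPA8 was 0.835, 0.475 and 0.709, HSP90B1 over HSP90AB1 0.165, 0.133 and 0.152, and PPIB over PPIA 0.156, 0.113 and 0.123. A ratio shows unequal change and not which gene moved.

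**Figure D5:**
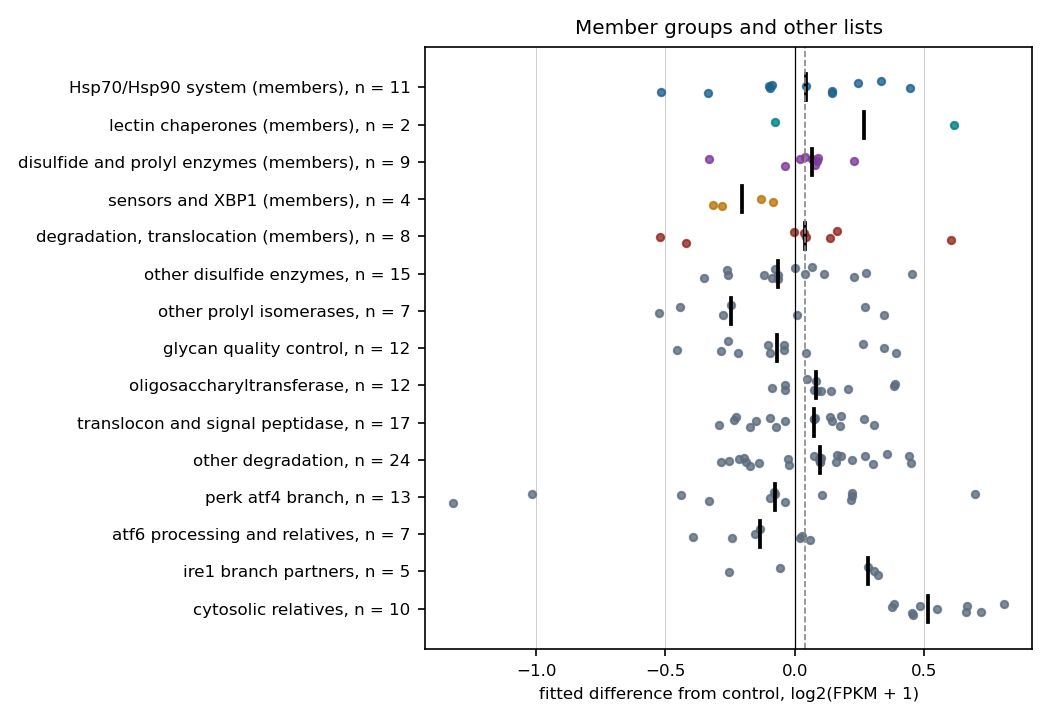
Fitted difference from the control on the log2(FPKM + 1) scale for each tested gene of the 5 member groups (coloured) and of 10 other lists (grey), with black ticks for medians and a dashed line at the median of all genes tested (0.04). The cytosolic relatives lie wholly to the right on this scaling, and the member groups straddle 0 except the sensors with XBP1, which lie to the left.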

How the data were processed

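Per the file headers, the authors deposited FPKM values, 1 per gene and library, in 3 libraries (1 control, 2 knockdown). BWA, Bowtie and hg19 stand in the submitters' processing notes, with no role or version. No source used here names the program that counted reads. All 58735 identifiers matched GENCODE release 29 (GRCh38), whose coordinates are printed. FPKM times exon length was a whole multiple of 1 read, to within 0.05, for 100% of nonzero values, and the implied divisors equalled median-of-ratios factors (1.04, 0.963 and 1.01), so the values already carry such a scaling.

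The test was limma 3.58.1 in R 4.3.3, run on log2(FPKM + 1) with an intensity trend, for genes whose mean reached 1 FPKM, with Benjamini-Hochberg adjustment over all of them. Fold changes on this scale understate low genes. Both fits were tested on simulated data. Alternatives were limma-voom on recovered reads (mean of at least 10), other pseudocounts, filters and scalings, no trend, and each knockdown library alone. Named genes were TRAF7, the members, and the 2 genes of lowest p in each other list; further genes (ATF4, DDIT3, ATF5, HSPA8, HSP90AA1) and all ratios were chosen after values were seen. The members and lists were chosen with earlier results of these data known. Protein sequences were not analysed here. Of the marker genes listed for the cell check, 1 is not reported here.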

Additional observations from a re-analysis of the deposited data

How the results depend on the processing

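No paired analysis was possible because there is 1 control library and its label carries no replicate number. By limma, 0 genes and 0 members were called with pseudocounts of 0.1, 0.5 or 5, under quantile normalization, with scaling to all assigned reads and without intensity trend. With a mean of at least 5 FPKM 3 genes were called, by limma-voom 130, and with no filter on low values 1465, and the last setting called 2 members, CALR (adjusted p = 0.000586) and SDF2L1 (0.0117). There most low genes have no variance and the prior degrees of freedom became infinite, so limma reported its variance estimate as unreliable. Members higher in both numbered 10 under quantile normalization and 8 with scaling to assigned reads, and members lower in both 20 and 19. The members' median was −0.099 and −0.063 under these settings, beside 0.020 and −0.049 for all genes tested. With a pseudocount of 5 it was 0.031, beside 0.025 for all genes. With the cut-off on mean level at 5 FPKM it was 0.039 for the 28 members kept, beside 0.105 for all genes kept. With 1 knockdown library left out, 19 to 20 members were higher and 14 to 15 lower, and the median was 0.035 to 0.041.

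Of the 34 members 19 kept their direction in every setting. Under quantile normalization 7 turned: HSPA5 (−0.098), PDIA3 (−0.15), PDIA4 (−0.22), PDIA6 (−0.0039), PPIB (−0.095), HERPUD1 (−0.080) and SEC61B (−0.22). With scaling to assigned reads 9 turned: MANF (−0.052), PDIA3 (−0.062), PDIA4 (−0.086), TXNDC5 (−0.0034), ERO1A (−0.0041), CRELD2 (−0.021), PPIB (−0.018), HERPUD1 (−0.065) and SEC61B (−0.060). The cause was not tested. With 1 knockdown library left out, 7 turned. The differences from the control in the remaining library were −0.21 to 0.026 for SIL1, −0.041 to 0.13 for MANF, −0.096 to 0.018 for P4HB, −0.024 to 0.062 for PDIA4, −0.31 to 0.043 for XBP1, −0.048 to 0.041 for SYVN1 and −0.0062 to 0.078 for HERPUD1. Depth limits ERO1B and DERL3, with 34 to 161 reads per library.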
